A study of Ovis aries with 24 samples.

Results

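The genes described here are 9 genes of tight junctions and of the blood-brain barrier: OCLN, MARVELD2, TJP1, TJP3, CLDN1, CLDN4, CLDN12, MFSD2A and ABCG2. They were picked by symbol, and each of the 9 symbols was found among the 27716 entries of both count tables, of periventricular white matter (PVWM) and of liver. After the filter on low counts, 8 of the 9 remained among 18616 genes tested in PVWM, where CLDN4 dropped out, and all 9 remained among 16824 tested in liver.

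The samples were messenger RNA libraries of preterm lambs, with 3 groups of 4 animals in each tissue (24 libraries from 13 animals, 11 of which gave both tissues). Unventilated lambs (animals 057, 058, 060 and 061 for PVWM, and 057, 058, 059 and 060 for liver) were males of 127 days (057 and 058) or lambs of 128 days, which were female where the sex was given (it was not for PVWM of 061 and liver of 060). Surfactant lambs (007, 032, 049 and 051) were ventilated and given poractant alfa into the trachea at 2.5 mL/kg. Budesonide lambs (031, 048, 050 and 054) were ventilated and given that surfactant mixed with 0.25 mg/kg of budesonide, a synthetic glucocorticoid. All ventilated lambs were females of 126 days, except 007 and 054, which were males of 127 days, so gestational age and ventilation can hardly be told apart. Both ventilated groups received surfactant, and no group was ventilated without it. The comparisons thus address what ventilation with surfactant, and the addition of budesonide, changed outside the lung.

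Tight junctions seal the space between neighbouring epithelial or endothelial cells. Claudins form the sealing strands and set which ions and small solutes pass, occludin and tricellulin are membrane proteins of the MARVEL family that shape the strands and their corners, and the zonula occludens scaffolds tie the strands to actin. In brain capillaries these junctions act together with a low rate of vesicle transport, which MFSD2A helps to restrain while importing lysophospholipids that carry docosahexaenoic acid, and with efflux pumps such as ABCG2. In liver, tight junctions separate bile from blood, and ABCG2 exports substrates into bile.

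Total counts per library were 14929261 to 17532605 in PVWM and 16087620 to 23175121 in liver. PVWM libraries carried astrocyte and neuron marker genes at summed levels of 3770 to 6100 and 3030 to 3990 CPM (counts scaled to a common library size), and liver libraries carried hepatocyte markers at 103000 to 154000 CPM. No marker that was matched was at 0 throughout a group. Some libraries stood apart by markers: oligodendrocyte genes summed to 15800 CPM in PVWM of surfactant animal 051 against 791 to 3335 CPM in the other 11, and choroid plexus genes to 163 CPM in unventilated animal 060 and 71.5 CPM in surfactant animal 007 against 4.93 to 23.2 CPM in the rest. Surfactant animal 049 had the highest endothelial (611 CPM against 284 to 417 CPM in the other 11), smooth muscle (184 against 43.6 to 97.3 CPM) and meningeal fibroblast markers (1185 against 311 to 926 CPM) in PVWM. CPM values below are scaled within each tissue and are means ± SD of 4 animals. Changes are log2 differences ± SE from edgeR, a gene is called when its Benjamini-Hochberg adjusted p over all genes tested is under 0.05, and intervals are at 95%. In bulk tissue a lower level can mean fewer cells of a type or less RNA per cell, which cannot be told apart.

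OCLN, which encodes occludin, was the member that rose in PVWM with budesonide. Its level was 33.5, 27.5, 30.7 and 22.3 CPM in budesonide animals 031, 048, 050 and 054, against 14.6, 13.8, 12.6 and 15.9 CPM in surfactant animals 007, 032, 049 and 051. Unventilated animals 057, 058, 060 and 061 had 16.0, 19.3, 16.3 and 15.8 CPM. Every budesonide animal lay above all 8 others, while the other two groups overlapped. The budesonide mean of 28.5 ± 4.77 CPM was 2.00-fold the surfactant mean of 14.2 ± 1.36 CPM (log2 1.00 ± 0.13, edgeR adjusted p = 0.00386) and 1.69-fold the unventilated mean of 16.8 ± 1.63 CPM (log2 0.76 ± 0.13, edgeR adjusted p = 0.00264). Between surfactant and unventilated animals OCLN did not pass the test (log2 -0.24, interval -0.53 to 0.04, edgeR adjusted p = 0.421). OCLN was the only one of 8 members called between the ventilated groups (0.978% of all genes were called, and 0.591% were called higher with budesonide). It was also the only member of the 8 whose CPM ranges were separate there, as they were for 7.6% of all genes.

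The OCLN difference between ventilated groups stayed called without any single PVWM library (log2 0.92 to 1.10, edgeR adjusted p 0.00336 to 0.0158), including without surfactant animal 051 (log2 1.06, edgeR adjusted p = 0.00447) or 049 (log2 0.95, edgeR adjusted p = 0.00975). Among only the 6 ventilated females of 126 days it was 1.12, which did not pass there (edgeR adjusted p = 0.0615; 2 genes in all were called). The difference from unventilated animals lost its call with gestational age as a covariate (log2 0.53, edgeR adjusted p = 0.226). Of 69 marker genes of 12 cell types, 3 were called lower with budesonide than with surfactant (0.387% of all genes), the microglial genes CX3CR1, P2RY12 and CSF1R. The microglial markers AIF1, TREM2 and C1QA were not called there. Their medians over all PVWM libraries were 4.30 to 12.2 CPM, against 31.7 to 65.4 CPM for the called genes, which thus make up most of the sum. Microglial markers summed to 67.5 to 92.4 CPM with budesonide, 143 to 195 CPM with surfactant and 181 to 197 CPM without ventilation; their part in the OCLN result was not tested. Endothelial markers summed to 284 to 351, 332 to 611 and 356 to 417 CPM in the same order.

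**Figure D1:**
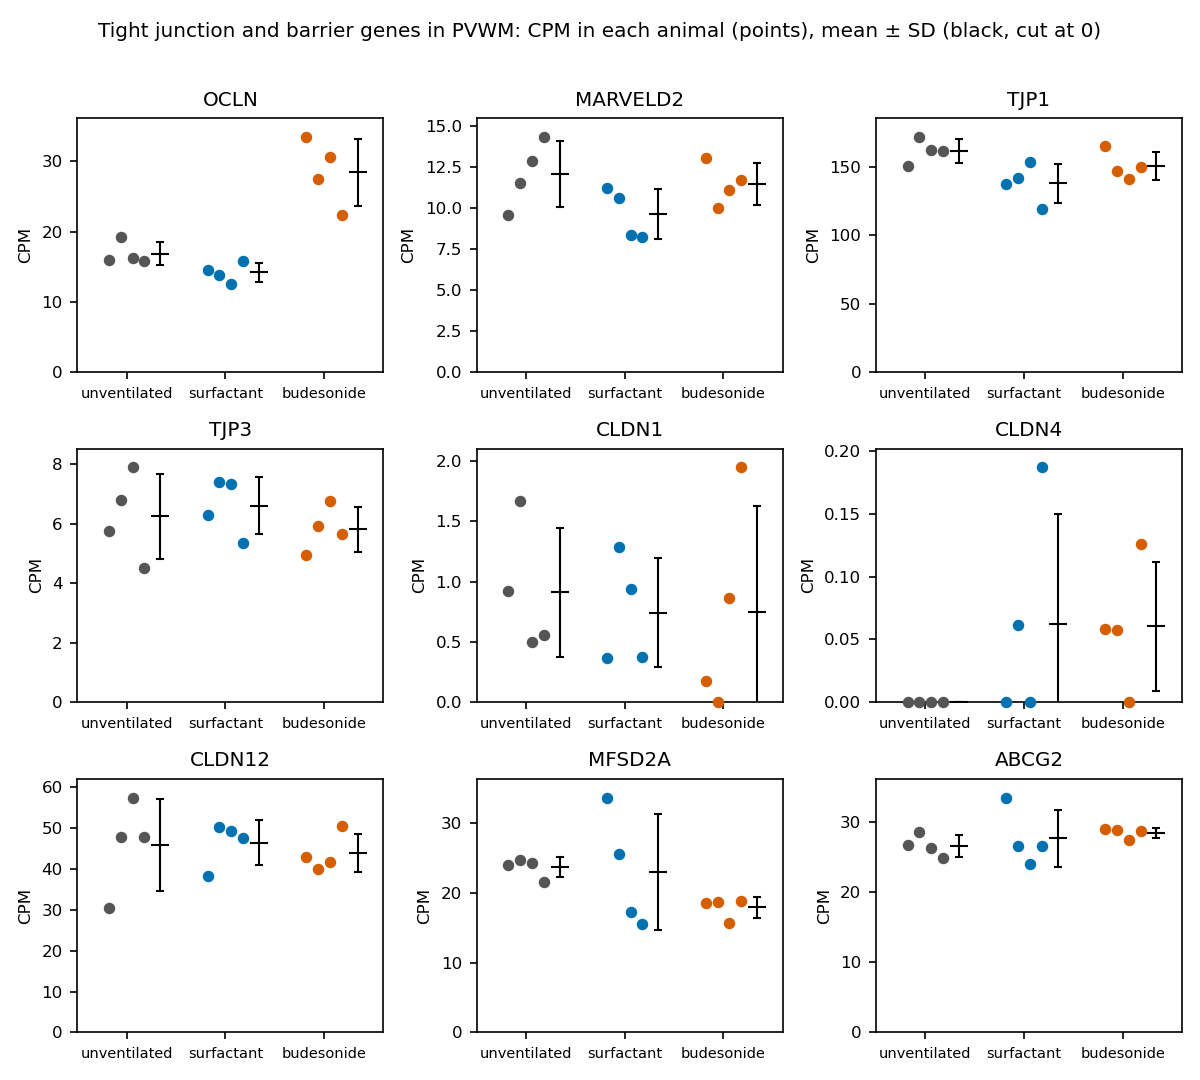
CPM of the 9 genes in PVWM, 1 panel per gene, with 1 point per animal and the mean ± SD of 4 animals in black for each group. OCLN is the panel in which all budesonide animals, at 22.3 to 33.5 CPM, lie above every other animal; MFSD2A is separate only between budesonide and unventilated animals.

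MARVELD2 encodes tricellulin, which closes the corners where 3 cells meet. In PVWM it ranged from 9.57 to 14.3 CPM in unventilated, 8.24 to 11.2 CPM in surfactant and 9.96 to 13.0 CPM in budesonide animals, so all groups overlapped. Its change between ventilated groups was 0.25 (interval -0.08 to 0.58, edgeR adjusted p = 0.58), which excludes a doubling. On the reference assembly ARS-UI_Ramb_v3.0, MARVELD2 and OCLN lie on the same chromosome with 1 annotated gene between them.

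The scaffold genes did not pass in PVWM. TJP1, for zonula occludens protein 1, had 162 ± 8.68 CPM without ventilation, 138 ± 14.3 CPM with surfactant and 151 ± 10.2 CPM with budesonide. Surfactant animals had TJP1 at 119 to 154 CPM and unventilated animals at 151 to 172 CPM, with animal 049 within the unventilated range. That difference of -0.23 had an unadjusted p of 0.0201, an edgeR adjusted p of 0.228 and an interval of -0.41 to -0.04. TJP3, for the related epithelial scaffold zonula occludens protein 3, ranged over 4.52 to 7.90, 5.37 to 7.41 and 4.94 to 6.76 CPM in unventilated, surfactant and budesonide animals, which overlap throughout.

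The 3 claudins among the members differed in how well PVWM detected them. CLDN12, a claudin found in brain endothelium among other tissues, had 45.9 ± 11.2, 46.3 ± 5.50 and 43.8 ± 4.59 CPM in unventilated, surfactant and budesonide animals, with a change of -0.08 between ventilated groups (interval -0.43 to 0.27). CLDN1, a strand claudin of skin and bile canaliculi, rested on 0 to 31 counts per library in PVWM. Its intervals were wide, at -1.75 to 1.75 between ventilated groups, so even large changes were not detectable in these libraries. CLDN4, a claudin of many epithelia, had no count in any unventilated PVWM library, where the floor of 3 counts corresponds to 0.184 to 0.193 CPM. It had 0 to 3 counts in each ventilated library and fell below the filter; in a fit without the filter its edgeR adjusted p was 0.467 for surfactant and 0.336 for budesonide against unventilated.

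Neither transporter among the members, MFSD2A or ABCG2, passed in PVWM. MFSD2A was 23.9, 24.7, 24.3 and 21.6 CPM in unventilated animals 057, 058, 060 and 061. Surfactant animals 007, 032, 049 and 051 spread over 33.6, 25.5, 17.2 and 15.5 CPM, and budesonide animals 031, 048, 050 and 054 were at 18.5, 18.7, 15.7 and 18.9 CPM. All budesonide animals thus lay below all unventilated animals, as was the case in either direction for 17.2% of all genes, while surfactant animals spanned both. The change of MFSD2A from unventilated to budesonide was -0.40 (interval -0.83 to 0.03, edgeR adjusted p = 0.265; edgeR adjusted p = 0.0264 when only those groups were fitted, in which case it passed). The highest surfactant value came from animal 007, 1 of the pair of libraries with high choroid plexus markers. The other, unventilated animal 060, was at 24.3 CPM of MFSD2A, within the range of its group. The part of these markers in the spread of MFSD2A was not tested. ABCG2 was 24.9 to 28.6, 24.1 to 33.6 and 27.5 to 29.0 CPM in unventilated, surfactant and budesonide animals, and its change between ventilated groups was 0.04 (interval -0.18 to 0.26).

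No member of the 8 was called between surfactant and unventilated PVWM by edgeR (2.05% of all genes were called, 1.35% higher and 0.698% lower with surfactant); 1 member, TJP1, had an unadjusted p under 0.05, and DESeq2 also called 0. No member had separate CPM ranges there either, against 8.4% of all genes. Between budesonide and unventilated PVWM 1 of 8 members, OCLN, was called, in the higher direction (8.06% of all genes were called, 4.35% higher and 3.71% lower with budesonide), and 2 of 8, OCLN and MFSD2A, had separate ranges. Median log2 changes over the 8 tested members were 0.02 with budesonide against surfactant, -0.13 with surfactant against unventilated and -0.09 with budesonide against unventilated, beside -0.01, 0.02 and 0.01 over all genes. The 3 comparisons of a tissue share groups, so their values are given side by side and not counted as separate evidence.

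The genes whose PVWM pattern was most like each member were taken by Pearson's r of log2 CPM over the 12 libraries, among 12949 genes of at least 1 CPM (12950 for CLDN1). These r are descriptions, since groups, depth and animals are shared. OCLN was most like EPHX2, which encodes soluble epoxide hydrolase (r = 0.959, 4.92 to 18.6 CPM), and then ARCN1, a coat protein of Golgi vesicles (r = 0.913). For MARVELD2 the most alike were CDC14B (0.928) and EFCAB5 (0.913), for TJP1 PCDH18 (0.925) and FZD1 (0.923), and for CLDN12 GABRB2 (0.949) and ZBTB33 (0.927). For MFSD2A they were PCDH8 (0.875) and DAW1 (0.854), for ABCG2 SPATA32 (0.877) and HNRNPA0 (0.867), and for TJP3 SPTBN1 (0.786) and RHEBL1 (0.774). CLDN1 gave DSCAM (0.941) and ULK1 (0.922), on few counts.

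Of the other barrier genes examined in PVWM whatever their result, CLDN5, CDH5 and SLC2A1 were called in none of the 3 comparisons. CLDN5, the main claudin of brain endothelium, had 11.2 ± 2.02, 13.1 ± 4.75 and 11.6 ± 2.67 CPM in unventilated, surfactant and budesonide animals. CDH5, for vascular endothelial cadherin, had 46.7 ± 5.08, 45.6 ± 11.2 and 36.9 ± 3.94 CPM in the same order. SLC2A1, the endothelial and astrocytic glucose transporter, was highest in surfactant animal 049 at 575 CPM, against 182 to 311 CPM elsewhere. Its change between ventilated groups was -0.70 (interval -1.20 to -0.20, edgeR adjusted p = 0.213), and -0.34 without animal 049 (edgeR adjusted p = 0.306), the library with the highest endothelial and smooth muscle markers; their part in the result was not tested. ABCB1, for the efflux pump P-glycoprotein, rose from 6.48 ± 0.63 CPM in unventilated to 14.0 ± 3.76 CPM in budesonide animals (log2 1.11 ± 0.22, edgeR adjusted p = 0.00793). PLVAP, a diaphragm protein of fenestrae and caveolae that mature brain capillaries hardly express, rose from 5.69 ± 1.42 to 11.6 ± 1.95 CPM in that comparison (log2 1.02 ± 0.23, edgeR adjusted p = 0.0147; without budesonide animal 054 it was 0.90, edgeR adjusted p = 0.0516, and with gestational age as a covariate it was 1.06, edgeR adjusted p = 0.155). Surfactant animals were at 10.1 ± 2.74 CPM of PLVAP, and neither ABCB1 nor PLVAP was called between the ventilated groups.

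Lists of 7 kinds of junction and barrier genes were examined beside the members, 105 of them tested in PVWM. Budesonide against surfactant called 4 higher and 4 lower, or 7.62% of the lists beside 0.978% of all genes; surfactant against unventilated called 7 higher and 5 lower, or 11.4% beside 2.05%. Budesonide against unventilated called 15 higher and 18 lower, or 31.4% beside 8.06%. The lists were written with earlier results known, so these shares are a description.

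Between the ventilated groups SLCO2B1, an organic anion uptake transporter, was at 83.6 ± 16.5 CPM with surfactant and fell with budesonide to 38.4 ± 5.82 CPM (a change of -1.12 ± 0.14, edgeR adjusted p = 0.00386). It was the 1 gene of these 8 that stayed called without any single library. The calls of AMOT (angiomotin, log2 0.58), INSR (the insulin receptor, 0.51), LRP6 (a WNT coreceptor, 0.66) and APCDD1 (a WNT antagonist, 0.49) in the higher direction were each lost in at least 6 of 12 omissions of 1 library, with edgeR adjusted p of at most 0.107. Those of PLAU (urokinase, -0.73) and SELP (P-selectin, -4.32) in the lower direction were lost in 11 and 10 of the 12.

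With surfactant against unventilated, CLDN10, a claudin of ion-conducting pores, fell to 8.67 ± 1.82 CPM against 17.7 ± 3.75 CPM (log2 -1.03 ± 0.19, edgeR adjusted p = 0.0143). SLC38A5, a neutral amino acid transporter, fell as well (log2 -1.39 ± 0.21, edgeR adjusted p = 0.00531), and so did PLAU (log2 -1.18 ± 0.15, edgeR adjusted p = 0.00172). These calls held without any single library. With gestational age as a covariate the changes stayed about as large, at -1.09, -1.30 and -1.26, but did not pass (edgeR adjusted p 0.297, 0.22 and 0.1). With sex as a covariate, in a fit that drops animal 061, CLDN10 was -1.02 and did not pass (edgeR adjusted p = 0.103). The leukocyte adhesion genes ICAM1 and SELP were called higher, at 36.6 ± 35.1 against 3.08 ± 0.89 CPM and 22.3 ± 28.7 against 0.50 ± 0.15 CPM; the ICAM1 call was lost in 5 of 12 omissions (edgeR adjusted p up to 0.104) and that of SELP without unventilated animal 060 (edgeR adjusted p = 0.0694). With gestational age as a covariate the changes shrank from 3.56 to 2.65 for ICAM1 and from 5.46 to 3.63 for SELP and did not pass (edgeR adjusted p = 0.767 and 0.796), and with sex as a covariate neither passed (edgeR adjusted p = 0.274 and 0.253). Without surfactant animal 049 they were 2.94 and 4.04 (edgeR adjusted p = 0.0491 and 0.0126). Both SDs are near or above the surfactant mean, so the surfactant animals differed widely among themselves.

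Among budesonide and unventilated PVWM, CLDN10 was lower still at 5.28 ± 0.93 CPM (log2 -1.74 ± 0.20, edgeR adjusted p = 0.000123). Of 24 tested junction membrane and scaffold genes 3 were called higher and 4 lower, and of 26 transporters and receptors 3 higher and 7 lower. Of all genes, 4.35% were called higher and 3.71% lower. JAM3, a junctional adhesion molecule, rose by 0.74 ± 0.12 (edgeR adjusted p = 0.0025), AMOT by 1.14 ± 0.11 (edgeR adjusted p = 3.13e-05) and INSR by 0.95 ± 0.10 (edgeR adjusted p = 6.64e-05). JAM3, AMOT and INSR were also called higher with surfactant against unventilated (log2 0.59, 0.56 and 0.44, edgeR adjusted p = 0.029, 0.0165 and 0.0367). The 4 lower junction genes, named here after their values were seen, were JAM2 (log2 -0.68), ESAM (-0.87), ILDR2 (-0.32) and CGN (-0.66), and the transporters SLCO2B1 and SLC38A5 fell (log2 -1.33 and -1.70, edgeR adjusted p = 0.000103 and 0.000326). Of 18 tested barrier-inducing WNT genes and transcription factors 3 were called higher and 5 lower, with a median log2 change of -0.38. FZD4, the receptor of the barrier-inducing WNT and norrin signals, rose by 1.00 ± 0.14 (edgeR adjusted p = 0.000883), and LRP6 and APCDD1 were called higher too. NKD1, a WNT feedback gene, and SOX18, an endothelial transcription factor, were lower by log2 -1.51 and -2.47 (edgeR adjusted p = 0.000947 and 0.00143). LRP5, NDP, which encodes norrin, and AXIN2, named here after their values were seen, were also called lower. CAV1, for caveolin, rose by 0.95 ± 0.16 (edgeR adjusted p = 0.00264), and with PLVAP made up the 2 called of 4 caveolar genes, both higher (4.35% of all genes). With gestational age as a covariate JAM3 was 0.57, FZD4 0.79 and CAV1 1.04, and none of these passed (edgeR adjusted p 0.172, 0.0757 and 0.0527). In this comparison 3 of 69 cell type markers were called higher, the astrocyte gene GFAP, the pericyte gene CSPG4 and the microglial gene AIF1 (4.35% of all genes). Another 7 were called lower, the endothelial gene KDR, the pericyte genes ANPEP and NOTCH3, the astrocyte gene AQP4 and the microglial genes CX3CR1, P2RY12 and CSF1R (3.71% of all genes); their part in these results was not tested.

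**Figure D2:**
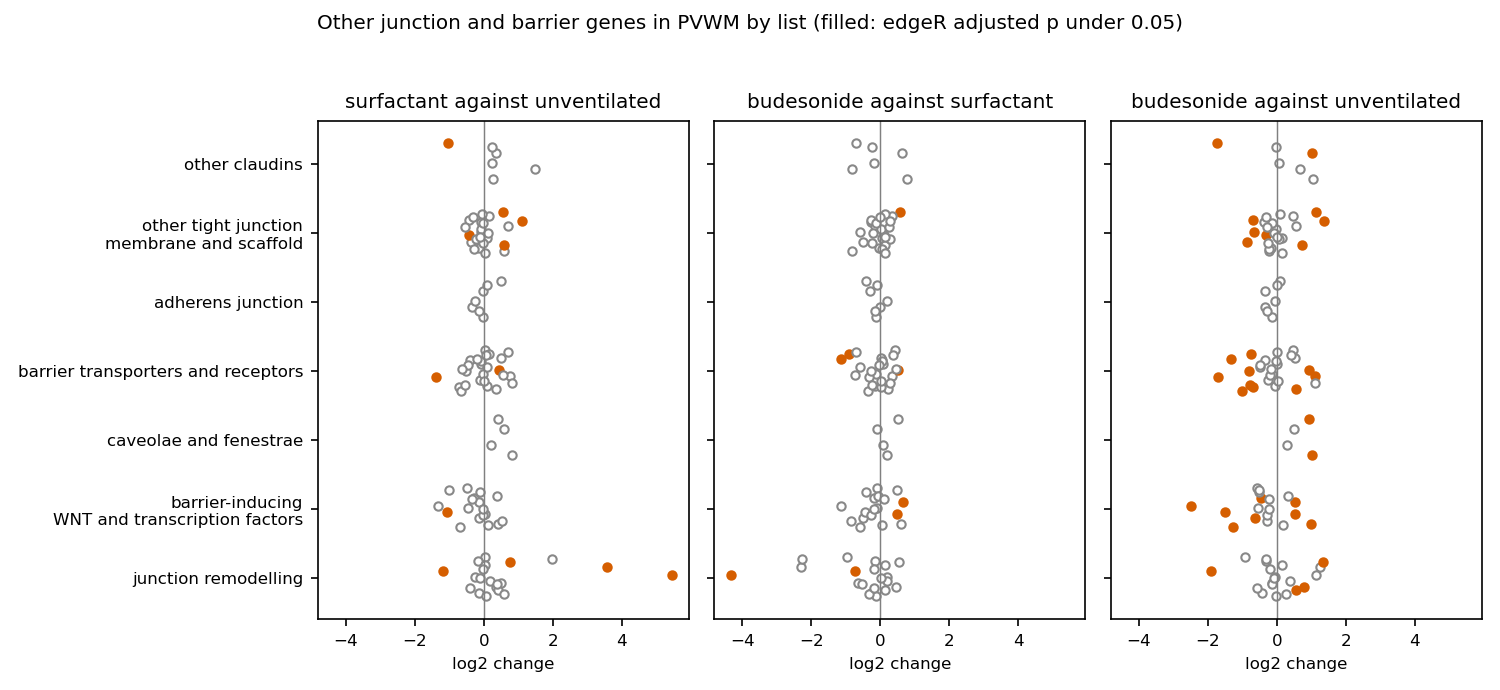
Log2 changes in PVWM of 105 other junction and barrier genes by list, 1 panel per comparison and 1 point per gene, filled where the edgeR adjusted p is under 0.05. Most points lie near 0 between the ventilated groups, where 8 are filled, and 33 are filled for budesonide against unventilated.

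In liver the members moved much more, as did genes in general. Surfactant against unventilated called 6 of 9 members, 2 higher and 4 lower (41.1% of all genes were called, 21.6% higher and 19.5% lower). Budesonide against unventilated called 5 of 9, 2 higher and 3 lower (47% of all genes, 23.3% higher and 23.7% lower). Budesonide against surfactant called 3 of 9, 1 higher and 2 lower (11.9% of all genes, 4.01% higher and 7.85% lower). CPM ranges were separate for 5, 4 and 2 of the 9 members in that order, against 37.4%, 48.8% and 14.4% of all genes. Median log2 changes over the 9 members were -0.43, -0.50 and -0.28 in that order, beside -0.02, 0.00 and -0.01 over all genes.

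MFSD2A showed the largest change of the 9. Its liver level was 2.17, 1.37, 1.41 and 1.12 CPM in unventilated animals 057, 058, 059 and 060, and 39.5, 67.8, 63.2 and 193 CPM in surfactant animals 007, 032, 049 and 051. Budesonide animals 031, 048, 050 and 054 had 307, 249, 216 and 260 CPM. The 3 groups did not overlap, although surfactant animal 051 came close to the budesonide range. The surfactant mean of 90.9 ± 69.2 CPM was 59.9-fold the unventilated mean of 1.52 ± 0.45 CPM (log2 5.90 ± 0.49, edgeR adjusted p = 8.01e-06). The budesonide mean of 258 ± 37.8 CPM was 2.84-fold the surfactant mean (log2 1.51 ± 0.39, edgeR adjusted p = 0.0289) and 170-fold the unventilated mean (log2 7.41 ± 0.52, edgeR adjusted p = 2.56e-06). Without surfactant animal 051 the change from unventilated to surfactant was 5.21 (edgeR adjusted p = 2.12e-06) and the step between ventilated groups was 2.16 (edgeR adjusted p = 0.000758). That step lost its call without surfactant animal 032 or 049 or budesonide animal 031 or 048 (log2 1.36 to 1.52, edgeR adjusted p 0.0598 to 0.0844), and among ventilated females of 126 days (log2 1.25, edgeR adjusted p = 0.0983). Both comparisons with unventilated liver kept their call in each of 18 alternatives, at 5.13 and 6.73 with gestational age as a covariate.

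CLDN4 fell in all 3 liver comparisons and CLDN1 in both against unventilated, while CLDN12 was called in none. CLDN4 was 144, 124, 174 and 140 CPM in unventilated animals 057, 058, 059 and 060. It was 55.5, 25.2, 63.3 and 33.0 CPM in surfactant animals 007, 032, 049 and 051, and 17.4, 19.4, 17.8 and 19.5 CPM in budesonide animals 031, 048, 050 and 054. The groups did not overlap and budesonide animals varied least. CLDN4 fell with surfactant against unventilated (log2 -1.72 ± 0.25, edgeR adjusted p = 0.00029), with budesonide against surfactant (log2 -1.25 ± 0.25, edgeR adjusted p = 0.00894) and with budesonide against unventilated (log2 -2.97 ± 0.26, edgeR adjusted p = 7.21e-06). Among ventilated females of 126 days the change between ventilated groups was -1.16 (edgeR adjusted p = 0.0643).

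CLDN1 had 69.3, 62.4, 84.3 and 69.5 CPM in unventilated livers 057, 058, 059 and 060. Surfactant animal 007 had 23.2 CPM, and 032, 049 and 051 had 7.44, 7.11 and 7.41 CPM, against 8.21, 6.02, 14.1 and 5.92 CPM in budesonide animals 031, 048, 050 and 054. Each ventilated liver was thus below every unventilated one, and the ventilated groups overlapped. CLDN1 fell by 2.66 ± 0.41 with surfactant (edgeR adjusted p = 0.000423) and by 3.06 ± 0.42 with budesonide (edgeR adjusted p = 0.000109) against unventilated. Without surfactant animal 007 the former was -3.28 (edgeR adjusted p = 6.55e-06), and with gestational age as a covariate the latter was -2.37 (edgeR adjusted p = 0.0157). Between the ventilated groups its change of -0.40 did not pass (interval -1.25 to 0.46, edgeR adjusted p = 0.527) and was 0.23 without animal 007 and 0.37 among females of 126 days, where it did not pass either (edgeR adjusted p = 0.593 and 0.483). CLDN12 had 32.9 ± 5.26, 25.3 ± 7.33 and 20.7 ± 9.34 CPM in unventilated, surfactant and budesonide livers and was not called (budesonide against unventilated log2 -0.66, edgeR adjusted p = 0.0975; without budesonide animal 048 it was -0.91 and passed, edgeR adjusted p = 0.0401).

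OCLN in liver varied widely within the surfactant group. Unventilated animals 057, 058, 059 and 060 had 26.6, 33.9, 48.1 and 40.8 CPM, surfactant animals 032, 049 and 051 had 7.92, 8.05 and 7.82 CPM, and surfactant animal 007 had 27.3 CPM, within the unventilated range. Budesonide animals 031, 048, 050 and 054 had 28.7, 23.9, 39.7 and 13.3 CPM. Against unventilated, OCLN fell by 1.55 ± 0.44 with surfactant (edgeR adjusted p = 0.0137; log2 -2.23 without animal 007, and -0.89 with edgeR adjusted p = 0.341 with gestational age as a covariate). Budesonide against surfactant was 1.05 ± 0.43, which did not pass (edgeR adjusted p = 0.126), and passed at 1.73 without surfactant animal 007 (edgeR adjusted p = 0.00471) and at 1.95 among females of 126 days (edgeR adjusted p = 0.00665). Animal 007 was the male of 127 days of its group.

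MARVELD2 had 10.8 ± 2.42, 7.98 ± 2.61 and 12.2 ± 2.05 CPM in unventilated, surfactant and budesonide livers. Surfactant animal 007 was again highest in its group, at 11.5 CPM against 5.40 to 8.34 CPM. The change between ventilated groups was 0.61 (interval 0.08 to 1.14, edgeR adjusted p = 0.117), and it passed without animal 007 (0.83, edgeR adjusted p = 0.029) and among females of 126 days (0.94, edgeR adjusted p = 0.0389). Surfactant against unventilated was -0.43 (edgeR adjusted p = 0.169), and passed without animal 007 (-0.66, edgeR adjusted p = 0.0318).

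Of the scaffolds, TJP1 was 85.3 ± 9.65 CPM in unventilated, 111 ± 5.38 CPM in surfactant and 111 ± 17.2 CPM in budesonide livers. It rose by 0.38 ± 0.14 in both comparisons with unventilated (edgeR adjusted p = 0.0452 and 0.0437). These calls are near the threshold and were lost in 11 and 13 of 18 alternatives, among them the omission of unventilated animal 057, 058 or 060, surfactant animal 032, 049 or 051, and budesonide animal 031 or 048 in both comparisons, and of budesonide animal 050 in the second (edgeR adjusted p 0.0558 to 0.121). Both were also lost with gestational age as a covariate (log2 0.33 and 0.32, edgeR adjusted p = 0.387 and 0.378). With sex as a covariate they were 0.32 and 0.30 and did not pass either (edgeR adjusted p = 0.125 and 0.132). TJP3 was low in liver, at 0.64 to 1.67 CPM, and was not called.

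ABCG2 in liver was 149, 113, 121 and 96.8 CPM in unventilated animals 057, 058, 059 and 060 and 50.2, 77.4, 73.6 and 89.8 CPM in surfactant animals 007, 032, 049 and 051. Budesonide animals 031, 048, 050 and 054 had 35.7, 41.9, 35.5 and 55.1 CPM. The ventilated groups overlapped through surfactant animal 007 and budesonide animal 054, and both lay below the unventilated group. ABCG2 fell by 1.51 ± 0.21 with budesonide against unventilated (edgeR adjusted p = 0.000122), which held in each of 18 alternatives. It fell by 0.72 ± 0.21 with surfactant against unventilated (edgeR adjusted p = 0.015). That call was lost without unventilated animal 057 (-0.60, edgeR adjusted p = 0.0515) and with gestational age as a covariate (-0.86, edgeR adjusted p = 0.12). Between the ventilated groups ABCG2 fell by 0.79 ± 0.21 with budesonide (edgeR adjusted p = 0.0288). The call between ventilated groups was lost without surfactant animal 032 or 049 or budesonide animal 031, 048 or 050 (log2 -0.72 to -0.80, edgeR adjusted p 0.0619 to 0.0869).

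**Figure D3:**
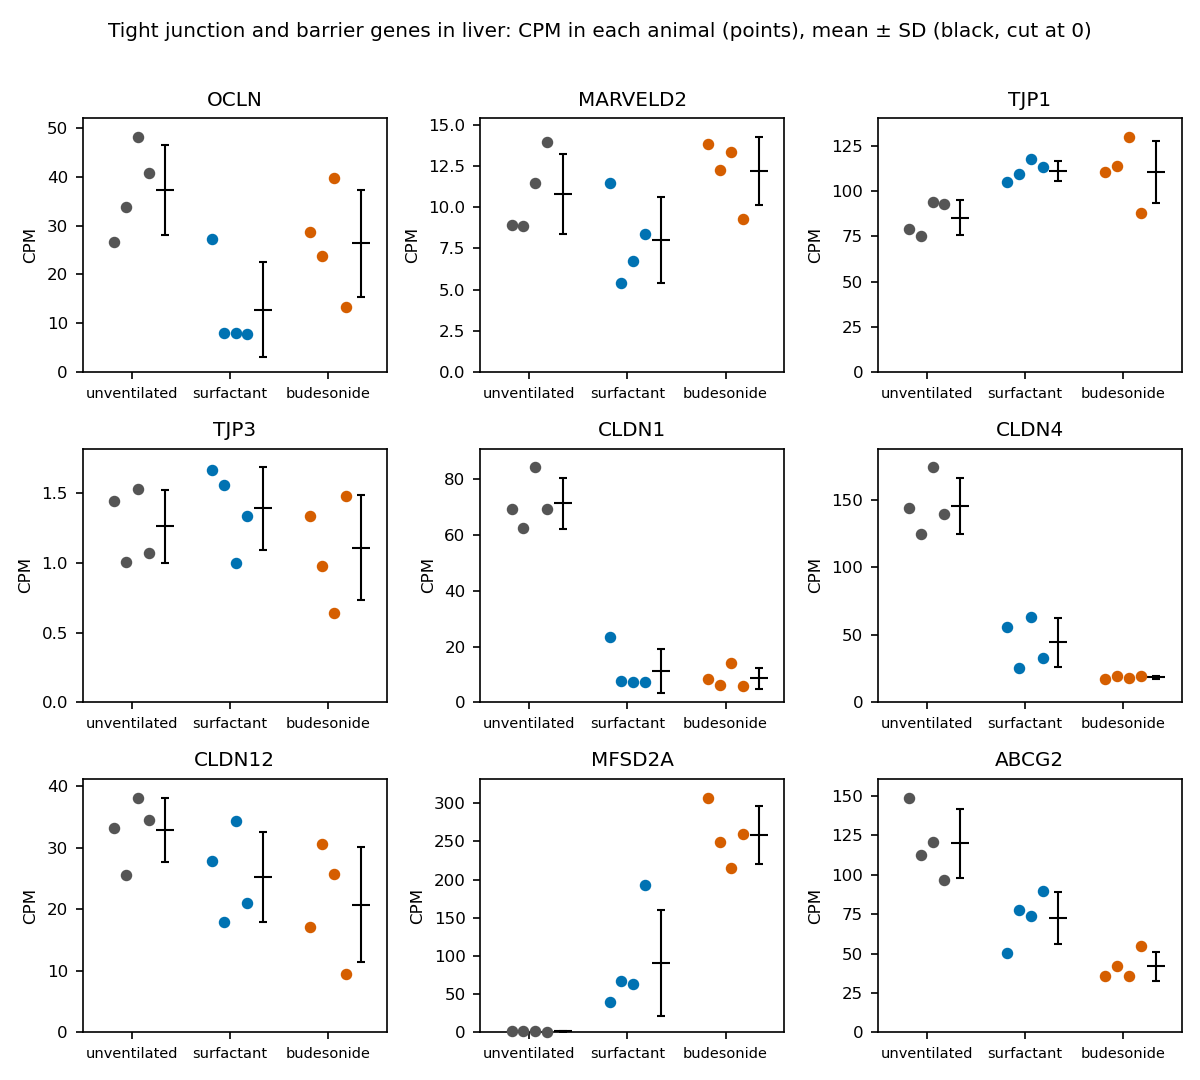
CPM of the 9 genes in liver, 1 panel per gene, with 1 point per animal and the mean ± SD of 4 animals in black for each group. MFSD2A climbs from 1.12 to 2.17 CPM without ventilation to 216 to 307 CPM with budesonide, CLDN4 and ABCG2 descend, and surfactant animal 007 (leftmost blue point) stands above its group for OCLN and CLDN1.

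Cell markers moved in liver too, and their part in the results of the members was not tested. Of 59 markers of 10 cell types, 20 were called higher and 4 lower with surfactant against unventilated (21.6% and 19.5% of all genes), 13 higher and 12 lower with budesonide against unventilated (23.3% and 23.7%), and 11 lower with budesonide against surfactant (7.85%). The summed bile duct list was 45.3 to 58.6 CPM without ventilation, 81.8 to 1890 CPM with surfactant and 184 to 771 CPM with budesonide; KRT7, SOX9 and SPP1 were called higher with surfactant, while EPCAM and KRT19 were not called. Endothelial markers summed to 332 to 415, 493 to 721 and 310 to 380 CPM, neutrophil markers to 23.3 to 71.1, 83.1 to 256 and 73.8 to 118 CPM, and hepatocyte markers to 120000 to 154000, 133000 to 147000 and 103000 to 152000 CPM in unventilated, surfactant and budesonide livers.

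Of the same 7 lists, 104 genes were tested in liver, and 30 were called higher and 20 lower with surfactant against unventilated (48.1%, beside 41.1% of all genes). Budesonide against unventilated called 24 higher and 32 lower (53.8%, beside 47%), and budesonide against surfactant 5 higher and 19 lower (23.1%, beside 11.9%). With surfactant against unventilated, 3 of 10 other claudins were called higher and 3 lower, with a median log2 change of 0.12. CLDN2, a pore-forming claudin, fell to 5.12 ± 1.84 CPM against 24.9 ± 6.05 CPM without ventilation (a change of -2.28 ± 0.42, edgeR adjusted p = 0.00125), while CLDN6, CLDN7 and CLDN11, named here after their values were seen, rose from means of 0.88, 0.86 and 1.17 CPM to 3.17, 1.76 and 2.49 CPM (edgeR adjusted p = 0.0425, 0.0476 and 0.0472). Of 24 other junction membrane and scaffold genes 2 were called higher and 8 lower (21.6% and 19.5% of all genes). The 8 lower, named here after their values were seen, were MARVELD3, ILDR2, CGN, PARD3, PARD6B, MPDZ, CRB3 and AMOTL1. With budesonide against unventilated 3 of the 24 were called higher and 13 lower (23.3% and 23.7% of all genes). JAM3 rose from 19.3 ± 4.38 to 113 ± 15.4 CPM with surfactant (log2 2.55 ± 0.19, edgeR adjusted p = 5.5e-06) and reached 189 ± 22.3 CPM with budesonide. YBX3, a transcription factor that binds zonula occludens protein 1, rose by 3.05 ± 0.36 with surfactant (edgeR adjusted p = 7.76e-05). Between ventilated groups CLDN15 (log2 -1.42 ± 0.28, edgeR adjusted p = 0.0086), MAGI1, a junction scaffold (-1.07 ± 0.17, edgeR adjusted p = 0.00274), and JAM2 (-1.19 ± 0.20, edgeR adjusted p = 0.00476) fell with budesonide. PLVAP and CAV1 rose with budesonide against surfactant by 1.21 ± 0.22 (edgeR adjusted p = 0.0056) and 1.37 ± 0.29 (edgeR adjusted p = 0.0118), and made up the 2 called of 4 caveolar genes (4.01% of all genes were called higher).

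**Figure D4:**
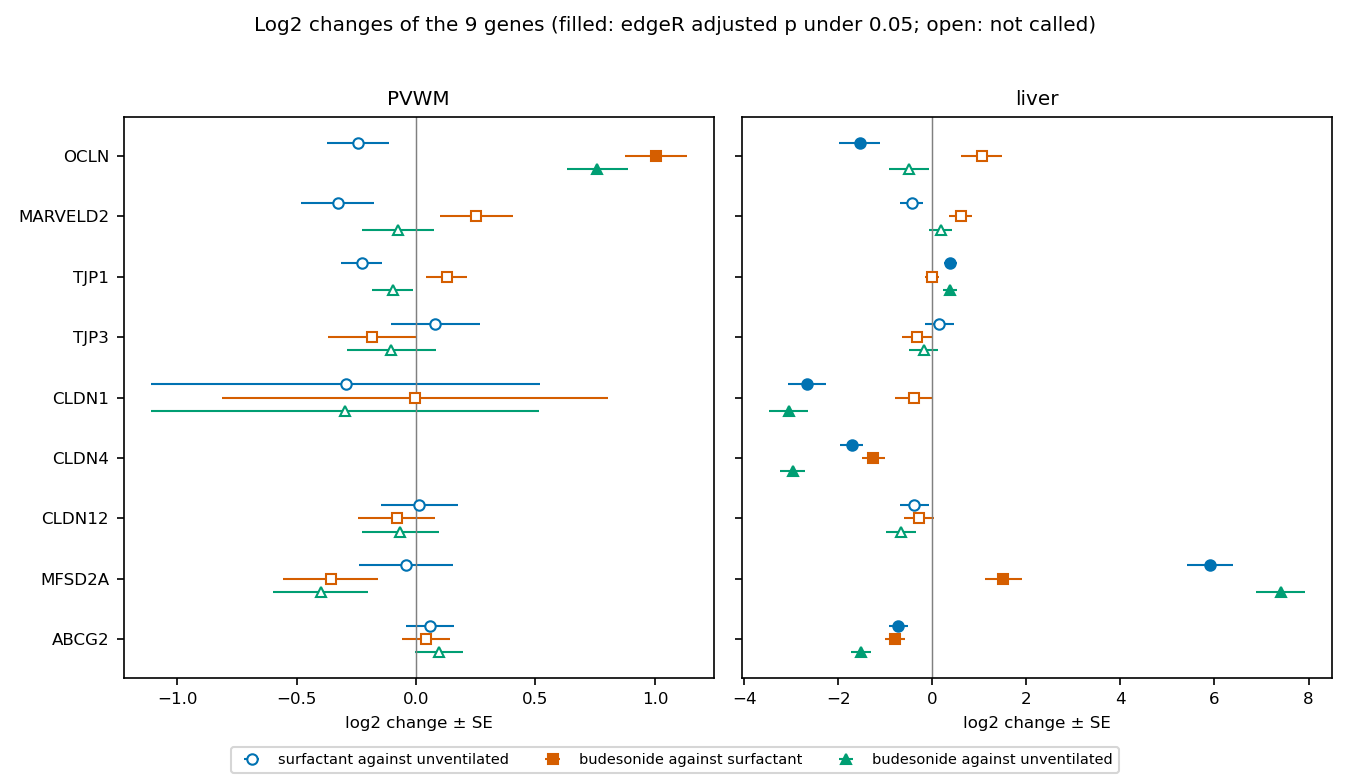
Log2 changes ± SE of the 9 genes in PVWM (left) and liver (right) for the 3 comparisons, filled where the edgeR adjusted p is under 0.05; the axes have different ranges and CLDN4 was not tested in PVWM. OCLN alone is filled on the left, while MFSD2A, CLDN1, CLDN4, ABCG2, OCLN and TJP1 are filled in at least 1 liver comparison.

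Whether a member changed differently in the 2 tissues was tested in 1 fit of all 24 libraries over 20010 genes; each value below is the change in liver less that in PVWM. For surfactant against unventilated, 4 of 9 members were called (25.8% of all genes). MFSD2A differed by 6.02 ± 0.52 (edgeR adjusted p = 7.9e-08; without animal 051 by 5.19) and TJP1 by 0.69 ± 0.16 (edgeR adjusted p = 0.003), with TJP1 at 0.44 in liver and -0.25 in PVWM. ABCG2 differed by -0.70 ± 0.23 (edgeR adjusted p = 0.0304), a call lost without animal 007, 057 or 061 (edgeR adjusted p 0.0592 to 0.105). CLDN4 was also called at -4.60 (edgeR adjusted p = 0.0347), but its PVWM term rests on 0 to 3 counts per library and on the prior count, and without animal 051 it was -3.23 (edgeR adjusted p = 0.258); it was lost too without 057, 058, 060 or 061 (edgeR adjusted p 0.0537 to 0.0641). With the animal as a block, ABCG2 and CLDN4 were -0.68 and -4.58 and did not pass (edgeR adjusted p = 0.115 and 0.0872) and OCLN gained one (-1.29, edgeR adjusted p = 0.0442, against -1.24 and 0.0544 without the block; it passed too without animal 007, at -1.89 with edgeR adjusted p = 0.000444, or 054, with edgeR adjusted p = 0.0385). CLDN1, at -2.30 with edgeR adjusted p = 0.0566, passed without animal 007, 048, 054 or 058 (edgeR adjusted p 0.00716 to 0.0441). With median-ratio scaling OCLN passed at -1.28 (edgeR adjusted p = 0.0451). With DESeq2 both OCLN (-1.28, DESeq2 adjusted p = 0.0282) and CLDN1 (-2.34, DESeq2 adjusted p = 0.0274) passed.

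For budesonide against surfactant, 2 of 9 were called (3.41% of all genes): MFSD2A at 1.86 ± 0.46 (edgeR adjusted p = 0.0274), being 1.49 in liver and -0.37 in PVWM, and ABCG2 at -0.84 ± 0.23 (edgeR adjusted p = 0.04996). With the animal as a block these differences were 2.08 and -0.84 and did not pass (edgeR adjusted p = 0.0658 and 0.125). Without animal 051 the MFSD2A difference was 2.69 (edgeR adjusted p = 4.15e-05). The MFSD2A call was lost without animal 031, 032, 048, 049, 050 or 054 (edgeR adjusted p 0.056 to 0.0912), and the ABCG2 call without any animal except 007 and 054 (edgeR adjusted p up to 0.155). OCLN, with 1.05 in liver and 0.99 in PVWM, differed by 0.06 (interval -0.90 to 1.03), so a difference between tissues of up to about a doubling in either direction was not detectable.

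**Figure D5:**
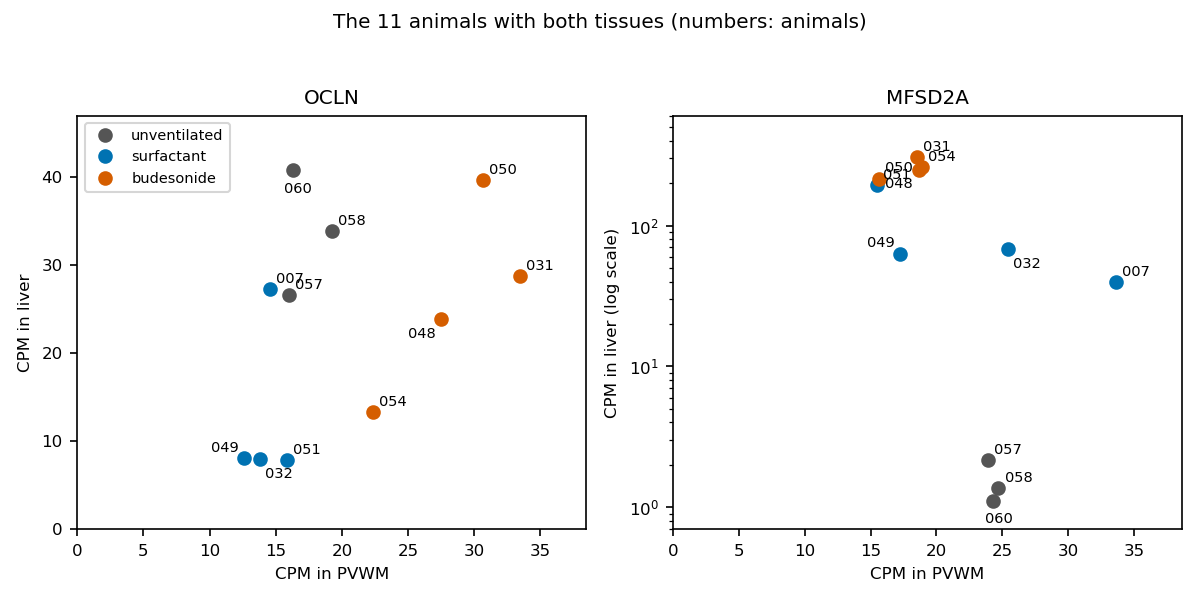
CPM in PVWM (horizontal axis) and in liver (vertical axis; log scale for MFSD2A) of the 11 animals with both tissues, labelled by animal number and coloured by group, for OCLN (left) and MFSD2A (right). The budesonide animals separate from the rest by OCLN in PVWM, at 22.3 to 33.5 CPM, and the unventilated animals by MFSD2A in liver, at 1.12 to 2.17 CPM.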

How the data were processed

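The authors deposited a table of raw counts per gene for each tissue, 12 libraries each; per the labels, RNA was extracted with Trizol, selected by poly-A and sequenced as paired 75 bp reads. Bowtie2, featureCounts and edgeR are named, per the submitters' processing notes; their versions and settings, like the build, are not given in the sources used here, so no coordinates are printed. Within a tissue each library is a separate animal. Columns were matched to samples by name. Of the entries, 588 locus identifiers, CLDN5 and KRT19 among them, were named through a RefSeq table, and 23 spreadsheet dates (0.0919 to 0.282% of counts) were kept.

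Within each tissue genes were filtered by filterByExpr, scaled by TMM factors, and modelled over 3 groups with edgeR's robust quasi-likelihood test (edgeR 4.0.16, R 4.3.3); DESeq2 1.42.0 was an alternative. The script was tested on simulated data. SE is the absolute log2 change over the square root of F. Animal numbers pair the tissues: per the labels 11 animals gave both, and residuals of their libraries correlated at 0.0794 to 0.198 (median 0.123, against -0.008 between animals). Intervals cover counting error and the spread between animals. The lowest chi-square per degree of freedom between replicates was 8.75, so none was a repeat deposit.

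The members and lists were chosen with earlier results of these data known. Named were the 9 members, the preset barrier genes, up to 3 (PVWM) or 2 (liver) called genes per list and comparison, and the 2 genes most alike per member; a few of these genes are not reported here. CLDN5, CDH5, TEK and CLDN11 stand both in junction lists and in marker lists. Symbols of the lists not matched were left out, VCAM1 and WNT7A among them. Alternatives were median-ratio scaling, no filter, DESeq2, only the groups compared, sex or gestational age as a covariate, ventilated females of 126 days only, the animal as a block, and the omission of each library.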

Additional observations from a re-analysis of the deposited data

Results flagged for a closer look

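Of 53 sets of 4 animals examined, 5 held 1 value far from the other 3 by Dixon's criterion at 95%, where chance gives about 1 in 20 sets. In liver, surfactant animal 007 stood high for OCLN (27.3 CPM against 7.82 to 8.05 CPM) and for CLDN1 (23.2 CPM against 7.11 to 7.44 CPM). In PVWM, budesonide animal 050 stood low for MFSD2A (15.7 CPM against 18.5 to 18.9 CPM) and for ABCG2 (27.5 CPM against 28.8 to 29.0 CPM), and unventilated animal 058 stood high for OCLN (19.3 CPM against 15.8 to 16.3 CPM).

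Changes that differed between tissues by edgeR, as liver minus PVWM on the log2 scale, were 1.86 for MFSD2A and -0.84 for ABCG2 with budesonide against surfactant. With surfactant against unventilated they were 6.02 for MFSD2A, 0.69 for TJP1, -0.70 for ABCG2 and -4.60 for CLDN4, the last on 0 to 3 counts per PVWM library.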

How the results depend on the processing

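Of 95 called results for named genes, 47 kept their call under every alternative, 48 lost it under at least 1 and 0 changed sign while called; of 63 results not called, 9 gained a call. Calls of members in PVWM were 2 instead of 1 for budesonide against unventilated when only those groups were fitted, 0 with gestational age as a covariate (346 of all genes instead of 1501), and 0 instead of 1 for budesonide against surfactant among ventilated females of 126 days (2 of all genes instead of 182). In liver they were 1 instead of 3 for budesonide against surfactant when only those groups were fitted (884 of all genes instead of 1994), and 3 instead of 6 for surfactant against unventilated with gestational age as a covariate (1398 instead of 6911). Omission of 1 library gave 1 member and 66 to 207 of all genes for budesonide against surfactant in PVWM, 0 members and 173 to 501 genes for surfactant against unventilated (382 with all libraries), and 1 member and 998 to 1657 genes for budesonide against unventilated. In liver it gave 1 to 5 members and 1007 to 2838 genes for budesonide against surfactant. Surfactant against unventilated gave 4 to 7 members. These were 4 beside 5509 of all genes without unventilated animal 057, and 7 beside 8109 without surfactant animal 007. Budesonide against unventilated gave 4 to 5 members, with 4 beside 6654 of all genes without animal 057 and 5 beside 8517 without animal 007. For liver minus PVWM, budesonide against surfactant called 1 member instead of 2 without the filter, and 0 with the replicate block for the animal (428 of all genes instead of 683). Without 1 animal it called 0 to 2 (282 to 1163 genes). Surfactant against unventilated called 4 members beside 5170 of all genes with all libraries, 2 to 6 members without 1 animal and 3 with that block. OCLN gained a call there with median-ratio scaling, and OCLN and CLDN1 with DESeq2. Member counts within tissues did not move with DESeq2, which called 548, 822 and 3135 of all genes instead of 182 (PVWM, budesonide against surfactant), 382 (PVWM, surfactant against unventilated) and 1994 (liver, budesonide against surfactant), and 1319 instead of 683 for liver minus PVWM. In PVWM, fits of only the groups compared gave 69 genes instead of 182 and 174 instead of 382; sex as a covariate, which drops the library of unknown sex in each tissue, gave 80, 97 and 668 instead of 182, 382 and 1501, and gestational age 15 instead of 382. In liver, sex gave 4273 instead of 6911 and gestational age 2958 instead of 7903 genes for surfactant and for budesonide against unventilated. CLDN1 and CLDN4 rest on few counts in PVWM, at 0 to 31 and 0 to 3 per library. The causes of these shifts were not tested.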
